A study of Homo sapiens with 6 samples.

Results

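The genes described here are 29 known transcriptional targets of the tumor suppressor p53, chosen by name from the 24846 genes in the deposited table. All 29 were found, each in 1 row, and all 29 passed the filter on low values with at least 30 reads in 1 library. By function they were grouped into 6 genes of cell cycle arrest, 3 of feedback on p53, 11 of apoptosis and its control, 4 of DNA repair and nucleotide supply, and 5 of metabolism, mitochondria and secretion. RNA-seq was performed on A549, a human lung carcinoma epithelial cell line with wild-type p53. The treated group (ACC) was 3 cultures grown in DMEM/F12 depleted of calcium, to which amorphous calcium carbonate, a non-crystalline form of calcium carbonate, was added at 2 mM of elemental calcium. The control group was 3 cultures in regular DMEM/F12, whose calcium comes as calcium chloride. Both groups had genotype WT in the labels, received fetal bovine serum and antibiotics, and were grown for 8 passages. Calcium differed both in its salt and in its amount. ACC also brought carbonate, and the paper's suspensions held sodium tripolyphosphate as a stabilizer. The effects of these differences cannot be told apart. The labels do not say that replicate cultures were passaged independently, so p-values measure the spread among these 6 samples only.

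The libraries held 21771645 to 23798621 reads in genes with ACC and 22801246 to 24805486 in control. Mitochondrial genes took 4.39% to 5.70% of the reads with ACC and 4.04% to 4.29% in control. With libraries scaled to their non-mitochondrial reads instead, the same numbers of the 29 genes passed a threshold of 0.05 on the limma adjusted p, 6 higher and 12 lower, with a median log2 fold change of -0.046. All 9 epithelial and A549 markers were abundant and all passed that threshold, 5 higher and 4 lower, where 55.5% of all genes with at least 30 reads passed. The smallest p were those of the adhesion gene CDH1, the reductases AKR1C1 and AKR1B10 (log2 fold changes 1.33 and 0.63) and the keratin KRT19 (0.64). Over all 9 markers the log2 fold changes ran from -0.502 to 1.332. Their summed level was lower with ACC, at 456417.9 to 486142.9 normalized counts against 497786.4 to 499299.3 in control. Markers of leukocytes, endothelium, fibroblasts and muscle were near 0, with none of 13 reaching 30 reads in a library and a summed level of 26.0 to 36.8 normalized counts with ACC and 28.5 to 45.3 in control. PTPRC and CD3E, which define leukocytes and T cells, were listed at 0 in all 3 ACC libraries. Only 1 of the 13 markers was at 0 in all 6 libraries, so PTPRC and CD3E were not both at 0 throughout control. A549 cells are known to lack the CDKN2A locus, which encodes the MDM2 inhibitor ARF, and CDKN2A had 0 reads in 5 of the libraries and 2 reads in ACC library 3.

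p53 is a transcription factor that is kept scarce by the ubiquitin ligase MDM2 and is stabilized when DNA damage or other stress signals interrupt that control. It then binds DNA as a tetramer and turns on genes that stop the cell cycle, start apoptosis, repair DNA, shift metabolism and, through MDM2 and others, limit p53 itself. The cell cycle inhibitor p21, encoded by CDKN1A, also leads to repression of cell cycle genes through the DREAM complex. Several of these targets have other activators too, and GDF15, PMAIP1, BBC3 and SESN2 are also known as targets of the stress factors ATF4 and CHOP.

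p53 binds a pair of 10-base half-sites, and these were searched for in the RefSeq promoter windows of GRCh38.p14, from 250 bases before to 50 bases after each transcription start. Windows were at hand for 25 of the 29 genes. A match to the p53 half-site consensus on either strand was present for 7 of the 25 (28.0%), against 8.06% of all 27305 genes with a window. The stretches that hold them are shown because they place a p53 sequence next to the start of genes measured here. They are written 5′ to 3′ on the strand of the gene, with the half-sites in capitals.
DDB2: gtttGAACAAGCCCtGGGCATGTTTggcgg
FAS: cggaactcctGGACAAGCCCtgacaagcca
PLK2: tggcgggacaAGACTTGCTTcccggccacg
RPS27L: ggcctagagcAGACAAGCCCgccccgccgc
SESN1: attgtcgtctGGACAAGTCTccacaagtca
AEN: agtcggagccGGGCTTGCCCgggcatgtgg
FDXR: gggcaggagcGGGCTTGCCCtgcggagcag
These lie on the plus strand at chr11:47214975-47215004 (DDB2), chr10:88991299-88991328 (FAS) and chr15:88621296-88621325 (AEN). On the minus strand they lie at chr5:58460199-58460228 (PLK2), chr15:63157517-63157546 (RPS27L), chr6:109009018-109009047 (SESN1) and chr17:74872986-74873015 (FDXR). DDB2 was the only one of the 25 genes with a pair of exact half-sites in the window, separated by a spacer of 1 base. Of all 35116 windows, 10 (0.0285%) held an exact pair with a spacer of 0 to 13 bases. With up to 2 mismatches allowed in the pair, AEN, DDB2, FAS, FDXR and MDM2 had one. These were 6 of the 36 windows of the target genes (16.7%), against 2.93% of all windows. The half-site of FAS begins 122 bases before a start, that of PLK2 132, RPS27L 59, SESN1 49, AEN 34 and FDXR 11. The genes with the largest changes, GDF15 and TP53I3, had no exact half-site in their windows, nor did CDKN1A. Sites outside these windows were not searched for, so whether p53 binds elsewhere at these genes was not tested.

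With ACC the 29 genes did not move in one direction. With limma and a threshold of 0.05 on the adjusted p, 6 were higher, 12 were lower and 11 did not pass. Among all 13860 genes with at least 30 reads in 1 library, 55.5% passed at that threshold, 27.2% higher and 28.3% lower. The share among the 29 genes was 62.1%. All 29 averaged at least 100 normalized counts over the 6 libraries, and of the 11179 genes at that level 59.4% passed, so the share was close to the background. The median log2 fold change was -0.05 over the 29 genes and -0.004 over all genes with at least 30 reads. The median size of the change, whatever its sign, was 0.20 and 0.21. GDF15 and TP53I3 alone changed by at least 2-fold, 1 up and 1 down, where 6.98% of all genes did, 3.87% higher and 3.12% lower. With PMAIP1 included, 3 of the 29 changed by at least 1.5-fold, 2 higher and 1 lower, against 15.6% of all genes, 8.61% higher and 6.96% lower. The ACC libraries lay entirely above the control libraries for 8 of the 29 genes and entirely below for 14, and 63.0% of all genes had groups that did not overlap, 31.0% above and 32.0% below.

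**Figure D1:**
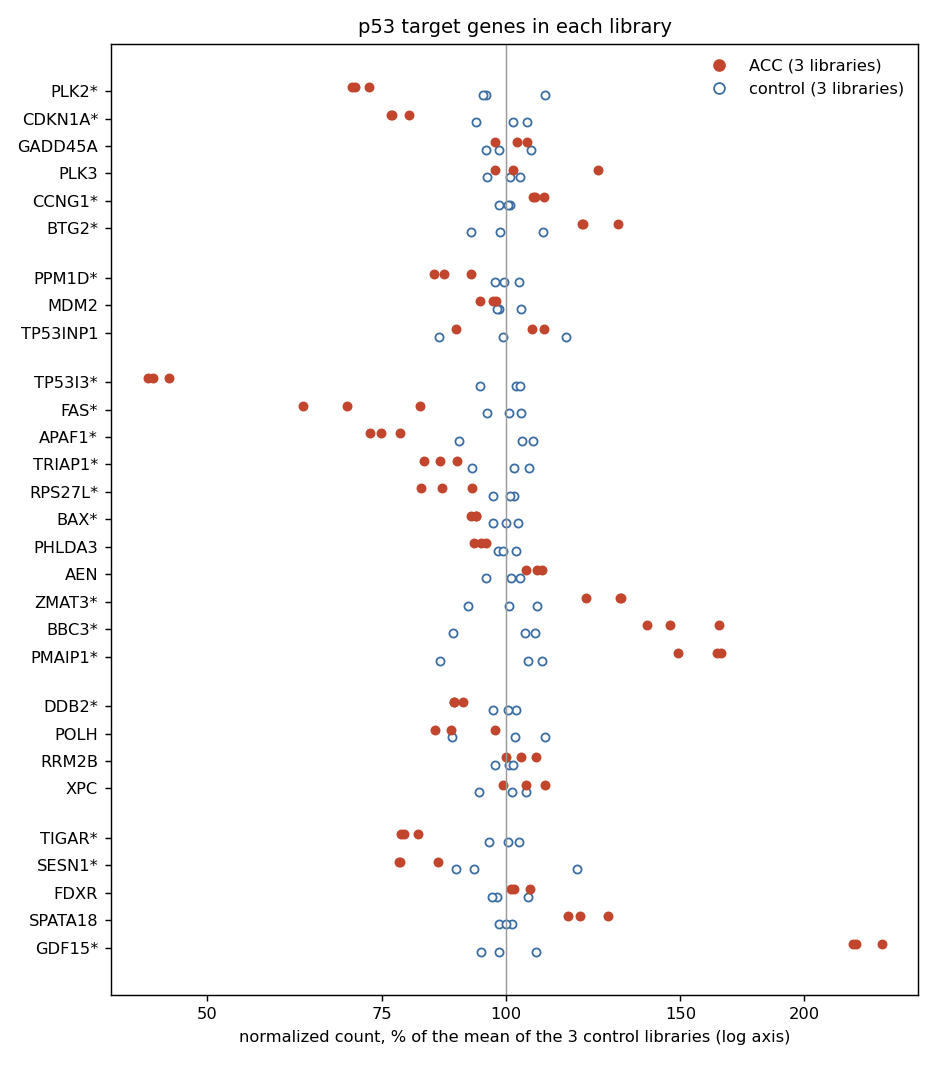
Normalized count of each of the 29 p53 target genes in each library, as a percentage of the mean of the 3 control libraries (log axis), with genes grouped from top to bottom as arrest, feedback, apoptosis, repair, and metabolic and other. Filled points are ACC libraries, open points are control libraries, and an asterisk marks genes past the limma threshold of 0.05 on the adjusted p, which 18 of the 29 genes reached, 6 higher and 12 lower.

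Among the genes of cell cycle arrest, PLK2 and CDKN1A were lower with ACC, BTG2 and CCNG1 were higher, and GADD45A and PLK3 did not pass. CDKN1A encodes p21, the inhibitor of cyclin-dependent kinases through which p53 stops the cycle, and lies on chromosome 6 of GRCh38 from 36676460 to 36687337. It had 1922, 2004 and 1928 normalized counts in the ACC libraries and 2552, 2637 and 2339 in the control libraries. All ACC values lay below all control values, and the level fell by 22.2% (log2 fold change -0.36, standard error, SE, 0.0457, limma adjusted p = 3.41e-06). PLK2, a polo-like kinase, is on chromosome 5 from 58453982 to 58460139. PLK2 had 2089, 2076 and 2156 normalized counts with ACC and 2831, 2812 and 3249.7 in control, again without overlap. It was lower (log2 fold change -0.49, SE 0.0496, limma adjusted p = 2.14e-07), the largest change of the 6 arrest genes.
BTG2, an antiproliferative partner of the mRNA deadenylation machinery, averaged 268 ± 12.9 normalized counts in ACC cells and 218 ± 18.6 in control cells (mean ± SD of 3 libraries, as in what follows) and rose by 0.30 on the log2 scale (limma adjusted p = 0.00793). CCNG1 encodes cyclin G1, which guides a phosphatase to MDM2. It averaged 1892 ± 24.8 with ACC and 1758 ± 24.6 in control, a log2 fold change of 0.11 (limma adjusted p = 0.0374), and did not pass without control library 1, control library 2 or any ACC library (limma adjusted p = 0.0587 to 0.13). GADD45A, a growth arrest gene that acts on stress kinases and repair, changed least, with 515, 478 and 503 normalized counts with ACC and 483, 469 and 519 in control. The groups overlapped, and the 95% interval of its log2 fold change ran from -0.11 to 0.16. For PLK3, a stress-responsive relative of PLK2, that interval ran from -0.11 to 0.31 around 0.10.

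Of the 3 feedback genes only PPM1D passed (33.3%, against 55.5% of all genes), and it was lower. MDM2, the ubiquitin ligase that p53 induces and that destroys p53, is on chromosome 12 from 68808177 to 68845544. It had 1194, 1151 and 1187 normalized counts with ACC and 1265, 1201 and 1197 in control. The ACC values lay just below the control values, the log2 fold change was -0.05 and it did not pass (95% interval -0.15 to 0.04, limma adjusted p = 0.388). PPM1D, the WIP1 phosphatase that reverses p53 phosphorylation, had 396, 387 and 421 normalized counts with ACC and 471, 445 and 455 in control. Its groups did not overlap and it was lower (log2 fold change -0.19, limma adjusted p = 0.0223), but it did not pass without ACC library 1 (adjusted p = 0.0666), ACC library 2 (0.0856) or control library 1 (0.0739). TP53INP1, a nuclear protein that promotes p53 phosphorylation, overlapped between groups with 294, 361 and 351 normalized counts with ACC and 329, 379.6 and 283 in control. The sign of its small change, 0.03 on the log2 scale, turned without ACC library 2, ACC library 3 or control library 3, in a range of -0.080 to 0.131.

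Genes of apoptosis moved in both directions. The BH3-only proteins PMAIP1 and BBC3, which bind the survival members of the BCL2 family, were higher with ACC, while the receptor FAS, the apoptosome scaffold APAF1, the pore-former BAX and the oxidoreductase TP53I3 were lower. Of the 11 genes 3 were higher, 6 were lower and 2 did not pass, with a median log2 fold change of -0.11. The share past the threshold was 81.8%, against 55.5% of all genes and 59.4% of abundant genes.
TP53I3, a quinone oxidoreductase also called PIG3 that is linked to reactive oxygen in p53-driven death, is on chromosome 2 from 24077433 to 24085861. TP53I3 had 1921, 1828 and 1853 normalized counts with ACC and 4300.2, 3959.9 and 4342 in control. The gap between the groups exceeded the range within either, and TP53I3 fell by 55.5% (log2 fold change -1.17, SE 0.0423, limma adjusted p = 1.65e-13), the largest fall of the 29 genes. In GENCODE 44, 3.46% of its exon bases are shared with FAM228B on the opposite strand, whose mean was 80.9 normalized counts with ACC and 91.0 in control.
PMAIP1, which encodes NOXA, is on chromosome 18 from 59899996 to 59904305. It had 455, 498 and 502 normalized counts with ACC and 321, 332 and 261 in control, with no overlap. PMAIP1 was higher by 59.2% (log2 fold change 0.68, SE 0.0838, limma adjusted p = 2.68e-06). BBC3, which encodes PUMA, had 499, 589 and 527 normalized counts with ACC and 376, 385 and 318 in control, also with no overlap. Its rise of 49.7% (log2 fold change 0.58, SE 0.0797, limma adjusted p = 8.56e-06) was of nearly the same size. ZMAT3, an RNA-binding zinc finger protein, was the third gene of this group to rise, averaging 685 ± 31.2 normalized counts with ACC and 539 ± 42.9 in control (log2 fold change 0.35, limma adjusted p = 2.15e-04).
FAS, the death receptor of the cell surface, averaged 118 ± 16.5 normalized counts with ACC and 166 ± 6.57 in control (log2 fold change -0.50, limma adjusted p = 0.00145). APAF1, which assembles with cytochrome c to activate caspase 9, averaged 399.9 ± 14.1 and 531 ± 47.4 in ACC and control cells (log2 fold change -0.40, limma adjusted p = 1.18e-04). Both were lower in every ACC library than in any control library.
BAX, which opens the mitochondrial outer membrane, is on chromosome 19 from 48954815 to 48961798. BAX had 2905, 2873 and 2905 normalized counts with ACC and 3121, 3022 and 3204 in control. The groups did not overlap, but the change was small (log2 fold change -0.11, limma adjusted p = 0.0284), and it did not pass without control library 1, control library 3 or any ACC library (limma adjusted p = 0.0605 to 0.0795). TRIAP1, a mitochondrial protein that opposes apoptosis, and RPS27L, a ribosomal protein relative that binds MDM2, were lower (log2 fold changes -0.22 and -0.20, limma adjusted p = 0.00686 and 8.37e-04). PHLDA3, which restrains AKT, changed least in this group, with 1740.4, 1695 and 1722 normalized counts with ACC and 1793, 1868 and 1810.0 in control. PHLDA3 did not pass (log2 fold change -0.08, limma adjusted p = 0.101), and neither did the nuclease gene AEN (0.10, limma adjusted p = 0.0880), although their groups did not overlap.

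**Figure D2:**
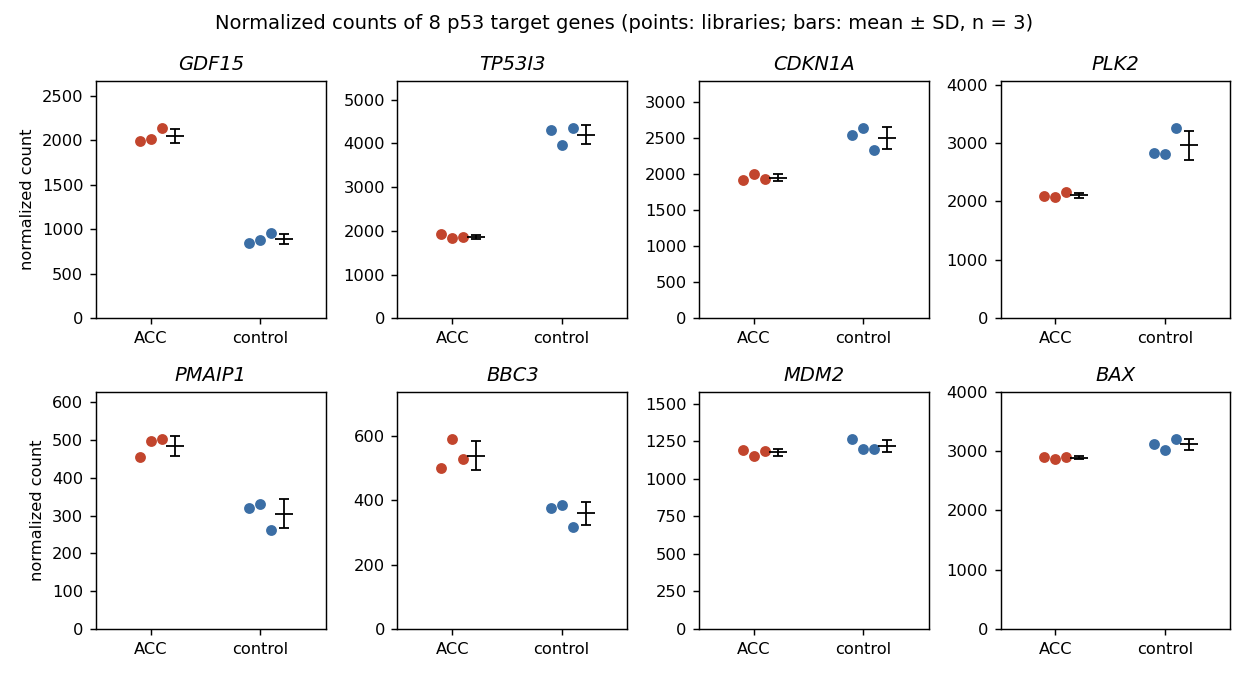
Normalized counts of GDF15, TP53I3, CDKN1A, PLK2, PMAIP1, BBC3, MDM2 and BAX in the 3 ACC libraries (left of each panel) and the 3 control libraries (right). Points are libraries and bars are the mean ± SD (n = 3), with axes from 0. GDF15, PMAIP1 and BBC3 lie above control in every ACC library and the other 5 lie below, with log2 fold changes of only -0.05 for MDM2 and -0.11 for BAX.

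Of the 4 repair genes only DDB2 passed (25.0%, against 55.5% of all genes). DDB2 senses ultraviolet damage in chromatin and hands it to XPC, the damage recognition factor of nucleotide excision repair. DDB2 had 1917, 1876 and 1877 normalized counts with ACC and 2167, 2128 and 2057 in control, without overlap, and was lower (log2 fold change -0.16, SE 0.0397, limma adjusted p = 0.00255). XPC, on chromosome 3 from 14145147 to 14178621, had 1630.4, 1477 and 1560.0 normalized counts with ACC and 1508, 1397 and 1558 in control. The XPC groups overlapped (log2 fold change 0.07, 95% interval -0.04 to 0.17, limma adjusted p = 0.328). RRM2B, the p53-induced small subunit of ribonucleotide reductase, overlapped as well, with 1214, 1258 and 1302 normalized counts with ACC and 1183, 1222 and 1235 in control. The interval of its log2 fold change was -0.04 to 0.15, and that of POLH, the polymerase that copies past ultraviolet lesions, -0.33 to 0.03. POLH passed only without control library 2 (adjusted p = 0.0402).

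GDF15 had the largest rise of the 29 genes. It encodes a secreted stress cytokine of the TGFβ superfamily and is on chromosome 19 from 18374731 to 18389176. GDF15 had 1992, 2009 and 2132 normalized counts with ACC and 840.4, 877 and 954 in control. The lowest ACC library was above the highest control library by more than the whole range of either group, and the level with ACC was 2.30 times that in control (log2 fold change 1.20, SE 0.0511, limma adjusted p = 1.48e-12). The metabolic genes TIGAR and SESN1 were lower with ACC. TIGAR, a phosphatase that diverts sugar from glycolysis, averaged 503 ± 10.7 normalized counts with ACC and 632 ± 22.5 in control (log2 fold change -0.33, limma adjusted p = 1.06e-04). SESN1, which restrains mTORC1, averaged 134 ± 6.91 and 167 ± 26.2 in ACC and control cells (log2 fold change -0.30, limma adjusted p = 0.0402). Control library 1 was the highest for SESN1, at 197 normalized counts, and without it the log2 fold change was -0.18 (limma adjusted p = 0.244). SESN1 did not pass without any 1 of the ACC libraries either (limma adjusted p = 0.0523 to 0.114). FDXR, a reductase of mitochondrial iron-sulfur and steroid synthesis, changed least here, with 1537, 1471 and 1480.2 normalized counts with ACC and 1529, 1422 and 1405 in control, which overlap. SPATA18, a protein of mitochondrial quality control, averaged 109.8 ± 5.28 with ACC and 91.2 ± 1.36 in control and did not pass (limma adjusted p = 0.0737).

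Ratios of 2 genes within a library do not depend on how libraries are scaled, and 11 pairs of a p53 target with a relative or partner were compared in this way. With 3 libraries against 3 the exact two-sided permutation test cannot go below 0.1. After adjustment over the 11 pairs, the smallest value of this permutation test was 0.138. The groups did not overlap for 8 of the 11 pairs. Among single genes with at least 30 reads the groups did not overlap for 63.0%, and the share among other pairs was not measured. The count alone therefore does not set these pairs apart. The ratio of CDKN1A to CDKN1B, which encodes the related inhibitor p27, differed most. Its log2 value was 0.01, 0.11 and 0.08 with ACC and 1.11, 1.21 and 1.16 in control, a difference of -1.09 (exact permutation p = 0.1). CDKN1A and CDKN1B were thus at nearly equal counts with ACC, with CDKN1A lower and CDKN1B higher (for CDKN1B, log2 fold change 0.73, limma adjusted p = 7.28e-10). SESN1 against SESN2, a sestrin also induced by ATF4, had a difference in log2 ratio of -0.85, FAS against the TRAIL receptor gene TNFRSF10B -0.65, and PLK2 against PLK3 -0.59. MDM2 against MDM4, the inhibitor of p53 that resembles it, had a difference of -0.43 and CCNG1 against CCNG2 -0.45 (exact permutation p = 0.1 for each of these 5 pairs). In each of these pairs the gene named first was lower relative to the other with ACC. The partners PLK3, SESN2 and TNFRSF10B are p53 targets too, so the pairs do not set targets against other genes. The first gene was higher relative to the other for GADD45A against GADD45B (0.15) and for XPC against DDB2 (0.23). The ratios of BBC3 to PMAIP1, BAX to BAK1 and BTG2 to BTG1 overlapped between the groups, with differences of -0.09, 0.06 and -0.03 (exact permutation p = 0.3, 0.3 and 1.0).

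**Figure D3:**
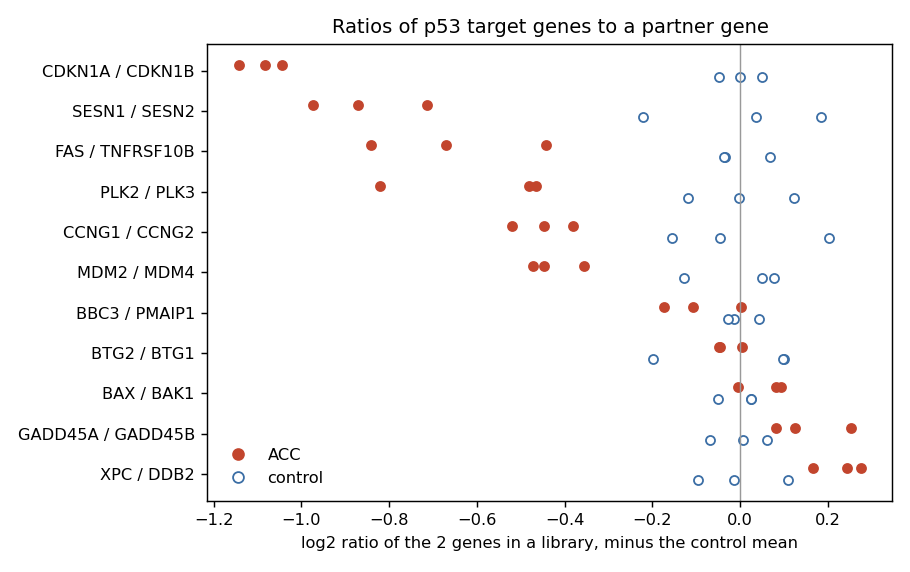
Log2 ratio of the normalized counts of 2 genes in each library, minus the mean of the 3 control libraries, for 11 pairs. Filled points are ACC libraries, open points are control libraries, and the ACC libraries lie apart from control for 8 pairs, furthest for CDKN1A over CDKN1B at -1.09. Among single genes with at least 30 reads, 63.0% had groups that lay apart.

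Of 33 members of the p53 family and its regulators with at least 30 reads, 6 were higher, 12 were lower and 15 did not pass. The share past the threshold, 54.5%, was close to the 55.5% of all genes. TP63, a p53 relative of basal epithelium, averaged 395 ± 23.1 normalized counts with ACC and 679 ± 74.8 in control (log2 fold change -0.78, limma adjusted p = 1.12e-07). PPP1R13L, which encodes the p53 inhibitor iASPP, had a log2 fold change of -0.64, and PRKDC, the catalytic subunit of the DNA-dependent protein kinase, -0.25 (limma adjusted p = 7.05e-08 and 8.25e-06). MDM4 was higher by 0.37 (limma adjusted p = 3.05e-04), so that the inhibitors of p53 were found in both directions. RPL23, a ribosomal protein that binds MDM2 and has copies elsewhere in the genome, had a log2 fold change of 0.07 and did not pass (limma adjusted p = 0.107).

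A further 52 direct targets of p53, listed from general knowledge, were examined in the same way. Of the 45 with at least 30 reads, 18 were higher, 9 were lower and 18 did not pass, with a median log2 fold change of 0.05. The share past the threshold was 60.0%, close to the 55.5% of all genes and the 59.4% of abundant genes. KITLG, the ligand of the KIT receptor, averaged 662 ± 8.66 and 239 ± 31.0 in ACC and control cells and had the largest rise (log2 fold change 1.47, limma adjusted p = 3.93e-11). PERP, a desmosome protein of stratified epithelium, was higher by 0.84 and PLXNB2, a semaphorin receptor, by 0.47 (limma adjusted p = 2.39e-12 and 3.62e-09). ABHD4, a lipid hydrolase, was the most abundant of those that did not pass (log2 fold change -0.07, limma adjusted p = 0.167).

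Genes that p53 is known to repress through p21 and DREAM fell together. All 30 had at least 30 reads and all 30 were lower with ACC, where 28.3% of all genes were lower. Their median log2 fold change was -0.42, in a range from -0.74 to -0.19. MYBL2, a transcription factor of mitotic genes, averaged 2151 ± 103 normalized counts with ACC and 3296 ± 166 in control (log2 fold change -0.62, limma adjusted p = 3.02e-09). CCNA2, the cyclin of S phase and G2, TOP2A, the topoisomerase of chromosome condensation, and CDC20, an activator of the anaphase complex, had -0.55, -0.53 and -0.63 on the log2 scale (limma adjusted p at most 7.26e-08). CDKN1A was lower and CDKN1B was higher in the same libraries, and the part of either in the fall of these genes was not tested. In bulk RNA, fewer cycling cells and less of each transcript per cell cannot be told apart.

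Among 12 cell cycle inhibitors and relatives of the arrest genes, 5 were higher, 1 was lower and 6 did not pass. CDKN1B averaged 1862 ± 37.5 normalized counts with ACC and 1124.5 ± 68.8 in control, and its rise was the largest of these. BTG1, CCNG2 and CDKN2C, an inhibitor of CDK4 and CDK6, were higher by 0.33, 0.56 and 0.32 on the log2 scale (limma adjusted p = 1.09e-05, 2.04e-05 and 1.39e-04). RBL2, a pocket protein of DREAM, had a log2 change of 0.00 (limma adjusted p = 0.944).
Of 24 genes of the BCL2 family and death machinery, 4 were higher, 9 were lower and 11 did not pass. The share past the threshold, 54.2%, was close to the 55.5% of all genes. BCL2A1, a survival protein that PMAIP1 and BBC3 bind, had 31.7, 21.2 and 24.6 normalized counts with ACC and 135, 160.0 and 177 in control. It was far lower in each ACC library (log2 fold change -2.57, limma adjusted p = 6.71e-10). BOK, a relative of BAX, was lower (log2 fold change -0.64, limma adjusted p = 9.69e-08), and BCL2L2, a survival protein, was higher by 0.45 (limma adjusted p = 1.93e-06). BCL2L1, which encodes BCL-xL, had 4543 ± 120 and 4547 ± 131 normalized counts in ACC and control cells and did not pass (limma adjusted p = 0.983).
Of 20 genes of nucleotide excision repair, translesion synthesis and nucleotide supply, 2 were higher, 6 were lower and 12 did not pass. The share past the threshold was 40.0%, below the 55.5% of all genes. RRM1 and RRM2, the large and small subunits of ribonucleotide reductase in S phase, were lower (log2 fold changes -0.55 and -0.58, limma adjusted p = 2.20e-07 and 1.09e-08), whereas the values of RRM2B, the p53-induced counterpart of RRM2, overlapped between the groups. The ligase LIG1 and the centrin CETN2 were lower (log2 fold changes -0.37 and -0.40, limma adjusted p = 3.10e-07 and 2.12e-06), and PCNA had a log2 change of 0.09 (limma adjusted p = 0.0506).

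**Figure D4:**
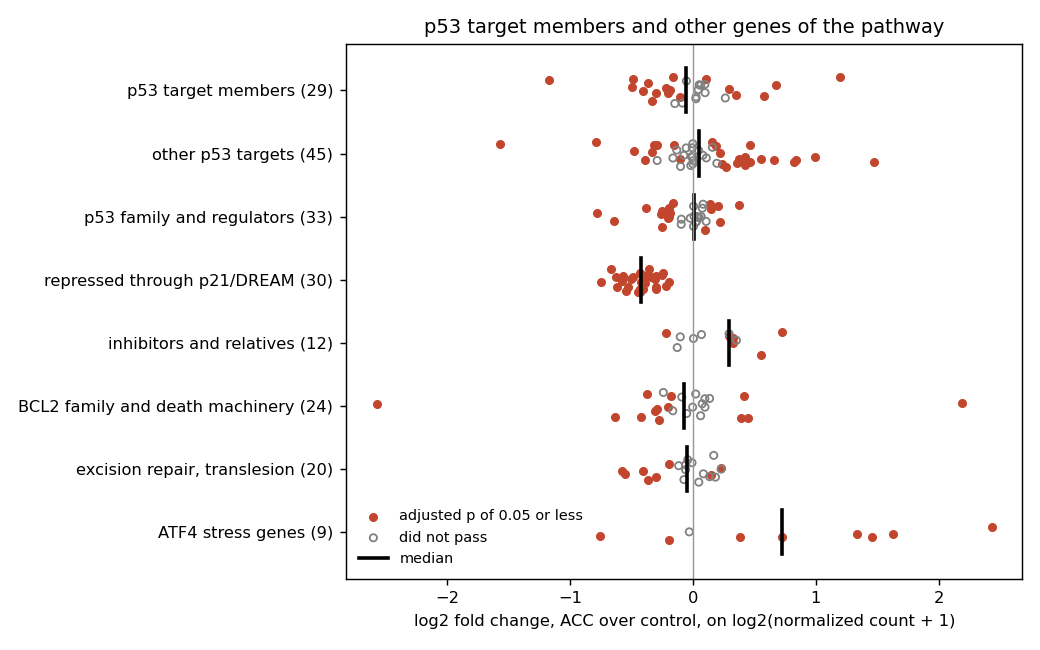
Log2 fold change, ACC over control, of the 29 p53 target genes and of genes with at least 30 reads in 7 other lists (number of genes in brackets). Filled points passed the limma threshold of 0.05 on the adjusted p, open points did not, and the black bar is the list's median, which was -0.05 for the 29 genes, -0.42 for genes repressed through p21 and DREAM and 0.72 for the ATF4 stress genes.

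The genes of the ATF4 stress response, which shares GDF15, PMAIP1, BBC3 and SESN2 with the p53 targets, were mostly higher in the same libraries. Of the 9 with at least 30 reads, 6 were higher, 2 were lower and 1 did not pass, with log2 fold changes from -0.753 to 2.431. The share past the threshold was 88.9%, against 55.5% of all genes. ATF4 averaged 11358 ± 207 normalized counts with ACC and 6879.8 ± 156 in control (log2 fold change 0.72, limma adjusted p = 4.32e-12). CHAC1, a glutathione-degrading enzyme, had 379, 388 and 395 normalized counts with ACC and 81.9, 65.8 and 66.5 in control (log2 fold change 2.43, limma adjusted p = 1.19e-12). DDIT3, which encodes CHOP, and TRIB3, an inhibitor of AKT, had log2 fold changes of 1.63 and 1.34, while PPP1R15A, the phosphatase subunit that reverses the stress signal, had -0.03 (limma adjusted p = 0.660). SESN2 was higher by 0.55 on the log2 scale (limma adjusted p = 5.01e-05). The summed level of the list was 23146 to 24361 normalized counts with ACC and 15409.8 to 16202 in control, of which ATF4 alone averaged 11358 and 6879.8. The part of this response in the changes of GDF15, PMAIP1 and BBC3 was not tested. The composite element TGATGNAA, to which ATF4 and CHOP bind, was searched on both strands in the promoter windows. It was present for 3 of the 10 stress genes (ASNS, CHAC1 and FGF21) and in 3.62% of all windows. These are unlike shares, since a gene can have several windows, and the share over all genes was not computed. Of the 25 p53 target genes with a window, PLK3 alone had a match to this element. A second motif, TGACGT, was searched in the same way and was present in 7.98% of all windows. It was present for 5 of the p53 target genes, PLK2, PMAIP1, PPM1D, TIGAR and XPC, and for 1 of the 10 stress genes, PPP1R15A.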

How the data were processed

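RNA from 3 ACC and 3 control cultures of A549 was sequenced as poly-A libraries. For the deposited table, the authors used Cutadapt for trimming, STAR 2.4.2a for alignment to GRCh38, htseq-count for gene totals and DESeq2 for size factors. The deposited signal values are counts divided by these factors, from which whole reads were recovered for 100% of positive values (tolerance 0.1 read). The log2 fold changes and the p-values in the deposited table are the authors' own comparison and were not used here. No column of values was left unmapped. The sources used here do not give the strand setting of the counting, and 10 of the 29 genes share exon bases with another gene. XPC shared the most, 24.6% with AC093495.1 on the opposite strand (means of 17.4 normalized counts with ACC and 15.9 in control). APAF1 shared 9.67% with ANKS1B on the opposite strand (11.0 and 17.3). FAS shared 1.32% with ACTA2 on the opposite strand (211.5 and 246.7) and 0.566% with STAMBPL1 on the same strand (283.8 and 571.4).

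limma 3.58.1 with a mean-variance trend was fitted in R 4.3.3 to log2 of the deposited value plus 1, in the 19318 genes whose 6 values sum to 10 or more, with Benjamini-Hochberg adjustment over all of them. Fold changes are on that scale, which understates the change of low genes. A 2-fold call also needed an adjusted p of 0.05 or less and 30 reads in 1 library, after the study's thresholds. edgeR 4.0.16 and DESeq2 1.42.0 were run on the recovered reads as alternatives. The fits were tested on simulated data with independent libraries and the same variance setting for every gene. Such data cannot show how the fits behave for cultures that were not passaged independently. Replicates differed by more than sampling noise (mean chi-square per gene 2.76 to 5.68). Coordinates of genes are those of GENCODE 44 on GRCh38, and promoter sequences are those of RefSeq.

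The members, lists and pairs were chosen with earlier results of these data known. All 29 genes are named. Values per library are given for those that passed with a fold of at least 1.5, for CDKN1A, MDM2, BAX and XPC, and for the largest and smallest change of each functional group, and those of BBC3, CHAC1 and BCL2A1 were added after their values were seen. Of each other list, the 4 smallest adjusted p and the most abundant gene that did not pass are named, except for some genes that are not reported here. SESN2, ASNS and FGF21 were named beyond this after their values were seen.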

Additional observations from a re-analysis of the deposited data

How the results depend on the processing

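Each of the 29 log2 fold changes was recomputed under 16 alternatives (pseudocounts of 0.5 and 5, other filters, TMM and non-mitochondrial scaling, edgeR, DESeq2, no trend, a replicate block and leaving out each library), and 18 of the 29 genes kept their direction and their side of the threshold in all of them. GDF15 and TP53I3 stayed the 2 genes changed at least 2-fold in every alternative. The genes past the adjusted p numbered 5 or 6 higher and 8 to 13 lower, the fewest lower without the mean-variance trend (8), and the median log2 fold change lay between -0.078 and -0.026. BAX, CCNG1, SESN1 and PPM1D lost their calls with DESeq2 (adjusted p = 0.0654, 0.0908, 0.102 and 0.0942). Without 1 library, BAX did not pass without control library 1 or 3 or any ACC library (adjusted p = 0.0605 to 0.0795), CCNG1 without control library 1 or 2 or any ACC library (0.0587 to 0.13), and SESN1 without control library 1 or any ACC library (0.0523 to 0.244), all from limma. Without the trend, BAX, CCNG1, SESN1, RPS27L and TRIAP1 did not pass (adjusted p = 0.111, 0.0885, 0.12, 0.0522 and 0.0606) and SPATA18 did (0.0148), and SESN1 did not pass with no filter (0.0552). Signs turned only in fits without 1 library and only for genes that had not passed: GADD45A to -0.007, PLK3 to -0.005 and TP53INP1 to -0.029, -0.009 and -0.080, with leave-one-out ranges of -0.007 to 0.068, -0.005 to 0.167 and -0.080 to 0.131. The ratio of BTG2 to BTG1 turned to 0.019 without control library 2 or 3, in a leave-one-out range of -0.13 to 0.019. The replicate block left 968 genes called, with 5 of the 29 genes higher and 12 lower, and CCNG1 lost its call (adjusted p = 0.0515). Same-numbered samples did not deviate together (correlations -0.114, 0.044 and -0.031), so the numbers were not read as pairs. Over all genes, 968 passed the 2-fold call, with 782 to 998 under the alternatives. Group means of the 29 genes were at or above 91.2 normalized counts, and with 3 samples a group no exact test of a single value can go below 0.1.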
